A study of Drosophila melanogaster with 26 samples.

Results

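The 6 genes described here are 3 genes of autophagy (Atg7, Atg8a and ref(2)P) and 3 lysosomal cathepsins (Cp1, a cathepsin L; CG10992, a cathepsin B; and cathD, a cathepsin D). They were taken by name from the 14659 features of the expression table, and all 6 were found. They were measured in 26 RNA libraries of the larval fat body, which stores lipid, glycogen and protein and acts as the liver and adipose tissue of the fly. The larvae were female Drosophila melanogaster at the wandering stage that ends larval life, raised with 0.15 M sucrose (control) or 0.7 M sucrose (high sugar). All came from crosses that serve elsewhere as controls for RNA interference. Every larva therefore carried an X-linked UAS-Dcr2 transgene, which encodes Dicer-2, together with a GAL4 line that drives it. In w1118 cg (6 control and 6 high-sugar libraries) and w1118 r4 (3 and 3), the fathers were of a w1118 stock, numbered 60000 in the genotype label, and the mothers carried cg-GAL4 or r4-GAL4. In 60100 r4 (4 and 4), the fathers were of the stock 60100 and the mothers carried r4-GAL4. The r4 line is active in fat body, and the cg line in fat body and also in blood cells.

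Autophagy carries cytoplasm to the lysosome for breakdown. Atg8a is a small ubiquitin-like protein that becomes linked to lipid on the growing autophagosome, Atg7 is the enzyme that activates it for this step, and ref(2)P, the fly counterpart of p62, binds cargo to Atg8a and is itself degraded in the lysosome. Cathepsins L and B are cysteine proteases and cathepsin D is an aspartic protease, and all act inside the lysosome. In the larval fat body, autophagy is known to start with starvation and again with the hormone pulse that precedes wandering.

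Each value is a multiple of its library's upper quartile, taken over a fixed number of features. The libraries were scaled in 4 sets, named here by their library numbers: 13-21 and 49-54 (both w1118 cg), 55-63 (w1118 r4) and 67-92 (60100 r4). Levels are comparable within a set and not between sets, so diets were compared inside sets. Every change of driver or stock between sets also changed the library numbers and the scaling, so these cannot be told apart. The 2 cg sets share driver and stock, 55-63 shares the w1118 stock with them, and 55-63 and 67-92 share the r4 driver. Which libraries were dissected finely and which were sheared is not given in the labels. The fat body genes Lsp2 (1190.0 to 4556) and Fbp1 (733 to 3564) were high in every library, while the salivary gland gene Sgs3 ranged from 0.231 to 675. Sgs3 stood at 234 or more in every library of 13-21 and at 56.9 or less in the other sets. The muscle gene Mhc stayed at 0.727 or less and the midgut gene Mal-A1 at 0.725 or less, but other genes of these tissues were higher, such as Jon65Aiii of the midgut with a mean of 14.3, and library sums reached 192 over 20 midgut and 67.4 over 8 muscle markers. Dcr-2, to which the transgene adds, was lower in all high-sugar libraries of both cg sets (50.3 to 60.7 against 17.6 to 19.7 in 13-21, 66.7 to 81.0 against 14.1 to 26.6 in 49-54) and overlapped in the r4 sets. The part of Dcr-2 in the results was not tested. Libraries 67 and 83 (r = 0.991) and 75 and 91 (r = 0.990) resembled each other more closely than any other 2 libraries of 1 set and diet, and results for the 6 genes are also given with each of these pairs averaged where that ends a call. In whole tissue, fewer cells of a type and less RNA per cell cannot be told apart, and the labels do not say that libraries came from separate groups of larvae.

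Within a library the 6 genes kept nearly the same order of level, taking the values as scaled to gene length, as Cufflinks reports them. cathD was the highest in 25 of 26 libraries, with a mean of 115.2, and Atg7 was the lowest in 25 of 26, with a mean of 1.62. ref(2)P, with a mean of 3.51, ranked next to last in 25 of 26 libraries. The middle places differed between sets: Atg8a stood above Cp1 in all 12 cg libraries, whereas Cp1 took the second place in all 14 r4 libraries. Cp1 and CG10992 changed places from library to library in the cg sets: their log2 ratio was 0.14 ± 0.34 (SD, n = 3) in control 13-21 and -0.00 ± 0.14 (n = 3) in control 49-54.

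Averaged over the sets, 2 of the 3 autophagy genes were lower and all 3 cathepsins were higher on high sugar. Atg7 fell by 0.37 ± 0.07 (SE) on the log2(value + 1) scale (limma, adjusted p = 0.000502) and Atg8a fell by 0.42 ± 0.10 (adjusted p = 0.00269). Cp1 rose by 0.36 ± 0.11 (adjusted p = 0.0159), CG10992 by 0.34 ± 0.10 (adjusted p = 0.0109) and cathD by 0.25 ± 0.10 (adjusted p = 0.0480). ref(2)P differed by 0.12 ± 0.11 (adjusted p = 0.398). Of the 2428 features tested, 23.1% were called higher and 13.4% lower in the same comparison, and their median difference was 0.0565. The cathD call is marginal: it was kept without library 15, 19, 20, 55, 57, 61, 84 or 92 and lost without any of the other 18 (adjusted p up to 0.0844). It was also lost with libraries 67 and 83 and libraries 75 and 91 averaged (0.24, adjusted p = 0.0860). The rises of Cp1 and CG10992 no longer passed without set 55-63 (adjusted p = 0.162 and 0.0801), without 67-92 (0.293 and 0.252), after quantile normalization (0.151 and 0.115) or with libraries whose numbers lie 16 apart averaged (0.0760 and 0.0545).

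Atg7, the activating enzyme, had a lower mean on high sugar in each set. In 13-21 it stood at 2.78, 2.24 and 2.15 in control libraries and at 1.74, 1.75 and 1.85 on high sugar. In 49-54 the values were 2.26, 1.56 and 1.57 against 1.36, 1.04 and 1.15, and in 55-63 they were 3.15, 2.16 and 1.85 against 1.498, 1.70 and 1.59. In these 3 sets every high-sugar library lay below every control library. In 67-92, control libraries held 1.33, 1.08, 1.26 and 2.07 and high-sugar libraries 0.793, 0.524, 0.494 and 1.26, so that library 92 overlapped the controls. The means fell by 25.7%, 34.0%, 33.2% and 46.5% in the order of the sets. On the log2(value + 1) scale, which understates changes at such low values, the differences were -0.28, -0.35, -0.37 and -0.47. Each of these had an SE of 0.14 to 0.16. Only the difference in 67-92 passed within its set (adjusted p = 0.0152), and it no longer passed without library 76, 84 or 91 (adjusted p 0.0580 to 0.0662). The effect was not shown to differ between sets (joint test of the 3 interaction terms, adjusted p = 0.880), and the fall over the sets was kept in all 41 alternatives that tested it.

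Atg8a, the substrate of that enzyme, was lower on high sugar in 3 of the 4 sets. In 13-21 its values were 53.3, 35.6 and 42.5 in control and 33.0, 34.9 and 31.0 in high-sugar libraries. In 49-54 they were 19.1, 17.7 and 19.2 against 13.4, 14.3 and 13.3, a mean of 18.7 ± 0.860 (SD, n = 3) against 13.7 ± 0.593 (n = 3). High-sugar libraries lay below all controls in both cg sets, without passing the test within either (adjusted p = 0.287 and 0.0987). In 55-63 the diets overlapped, with 8.21, 13.2 and 7.38 in control and 10.7, 9.41 and 6.64 on high sugar. In 67-92 the values were 7.20, 8.23, 6.96 and 8.34 against 4.60, 3.396, 3.67 and 6.03. There every high-sugar library was again lower, and Atg8a fell by 0.70 ± 0.17 (adjusted p = 0.00460). That fall no longer passed with libraries whose numbers lie 16 apart averaged (-0.68, adjusted p = 0.0580). A difference between sets was not shown (adjusted p = 0.230), but the fall over the sets was -0.29 and no longer passed when 67-92 was left out (adjusted p = 0.0735), nor with genotype background in place of set in the model (adjusted p = 0.108).

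ref(2)P, the cargo receptor, did not follow the other autophagy genes. In the cg sets every high-sugar library was above every control: 4.91, 4.22 and 4.79 against 3.69, 3.11 and 4.16 in 13-21, and 5.34, 5.31 and 5.82 against 4.15, 3.78 and 2.80 in 49-54. Neither difference passed within its set (0.28 ± 0.20, adjusted p = 0.497, and 0.51 ± 0.20, adjusted p = 0.0534). The second passed without library 49 of its own set (0.60, adjusted p = 0.046). It also passed without library 56, 57, 61, 76 or 92 (lowest adjusted p 0.0238), which are of other sets and leave the difference at 0.51. Leaving out 1 library gave an adjusted p of up to 0.206. In the r4 sets the diets overlapped. Controls in 55-63 held 2.76, 3.91 and 1.87 and high-sugar libraries 3.41, 2.48 and 2.23, and in 67-92 the values were 2.79, 3.26, 2.60 and 3.402 against 2.89, 1.42, 2.37 and 3.79. The 4 within-set differences were not shown to be unequal (adjusted p = 0.132).

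**Figure D1:**
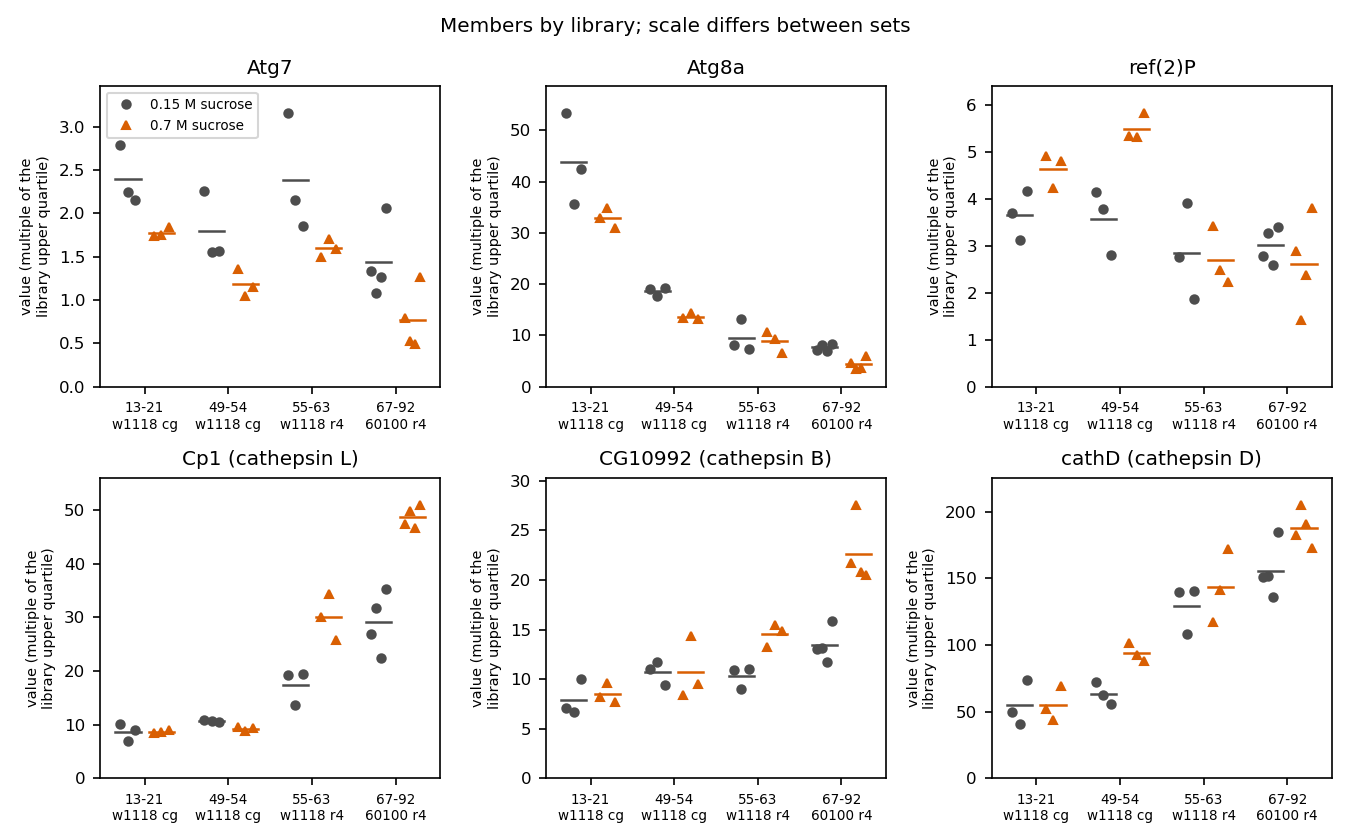
Level of each gene in every library (y axis, multiple of the library's upper quartile, starting at 0) by set (x axis), with grey circles for control, orange triangles for high sugar and bars for group means. Atg7 and Atg8a sat lower on high sugar in most sets, while Cp1 and CG10992 sat higher in all high-sugar libraries of both r4 sets and Cp1 lower in all of 49-54. Levels are not on a common scale between sets.

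Cp1, the cathepsin L, was higher on high sugar in the r4 sets and not in the cg sets. In 55-63 it stood at 19.3, 13.6 and 19.5 in control and at 30.0, 34.3 and 25.7 in high-sugar libraries, a ratio of means of 1.72. In 67-92 the values were 26.8, 31.7, 22.4 and 35.4 against 47.3, 49.8, 46.7 and 50.96, a ratio of 1.68. The diets did not overlap in either set, and the rises were 0.75 ± 0.16 (adjusted p = 0.00148) and 0.74 ± 0.14 (adjusted p = 0.000546). In 13-21 the means were 8.72 ± 1.61 (SD, n = 3) and 8.71 ± 0.235 (n = 3), with values of 10.1, 6.97 and 9.03 against 8.51, 8.66 and 8.97. In 49-54 each high-sugar library was below each control, at 9.498, 8.77 and 9.29 against 10.8, 10.8 and 10.4, a difference of -0.20 ± 0.16 that did not pass (adjusted p = 0.358) but did after quantile normalization (-0.45, adjusted p = 0.0430). The diet effect of Cp1 differed between sets (joint test, adjusted p = 0.00209), and this was kept in all 35 alternatives. Of all features tested, 37.0% passed the joint test.

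CG10992, the cathepsin B, was also higher in all high-sugar libraries of both r4 sets, and it passed in one of them. In 67-92 it stood at 13.1, 13.2, 11.7 and 15.8 in control and at 21.7, 27.6, 20.8 and 20.5 on high sugar, and rose by 0.71 ± 0.15 (adjusted p = 0.00181; 0.61 without library 76, the highest). In 55-63 its values of 10.9, 9.005 and 10.99 against 13.2, 15.4 and 14.9 did not overlap, with a difference of 0.46 ± 0.17 (adjusted p = 0.0571). That difference passed without library 15, 52, 53 or 76 (lowest adjusted p 0.0312). These are of other sets, so the difference itself stayed at 0.46. Leaving out 1 library gave an adjusted p of up to 0.192. The cg sets overlapped, with 7.12, 6.72 and 9.97 against 8.17, 9.65 and 7.71 in 13-21 and 11.01, 11.8 and 9.40 against 8.37, 14.3 and 9.46 in 49-54. The joint test of a difference between sets gave an adjusted p of 0.0447, which was kept without library 13, 14, 20, 51, 53, 61, 84 or 92 and lost without any of the other 18 (adjusted p up to 0.0850).

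cathD, the aspartic protease, passed within 1 set. This was 49-54, where it stood at 72.5, 62.2 and 55.9 in control and at 101, 92.4 and 88.3 in high-sugar libraries, and rose by 0.56 ± 0.20 (adjusted p = 0.0294). This call was lost without library 50, 51, 52 or 53 (adjusted p 0.0612 to 0.113) and after quantile normalization (0.18, adjusted p = 0.461). In 13-21 the diets overlapped fully, at 49.7, 40.6 and 73.8 against 51.9, 43.9 and 69.0. They overlapped as well in 55-63, at 139.5, 108 and 140.2 against 117, 141 and 172, and in 67-92, at 151, 152, 136 and 185 against 183, 205, 191 and 173. In the last set the difference of 0.27 ± 0.17 did not pass (adjusted p = 0.221), but after median-of-ratios scaling it was 0.46 (adjusted p = 0.0363). No difference between sets was shown (adjusted p = 0.359).

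Taken set by set, autophagy genes were lower on high sugar in all libraries in 6 of 12 gene-by-set comparisons, higher throughout in 2 and overlapping in 4. Cathepsins were higher throughout in 5 of 12, lower throughout in 1 and overlapping in 6. Among all features tested, 9.23% were higher throughout and 17.2% lower throughout in 13-21, 34.3% and 16.8% in 49-54, 28.1% and 10.1% in 55-63, and 13.1% and 12.4% in 67-92. By the adjusted p, 0 members passed in 13-21, where limma called 2.14% of features higher and 5.85% lower, and 0 of the 6 had an unadjusted p under 0.05. In 49-54 cathD passed (24.2% of features higher, 10.2% lower), in 55-63 Cp1 (17.8% and 5.19%), and in 67-92 Cp1, CG10992, Atg8a and Atg7 (16.8% and 14.8%).

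**Figure D2:**
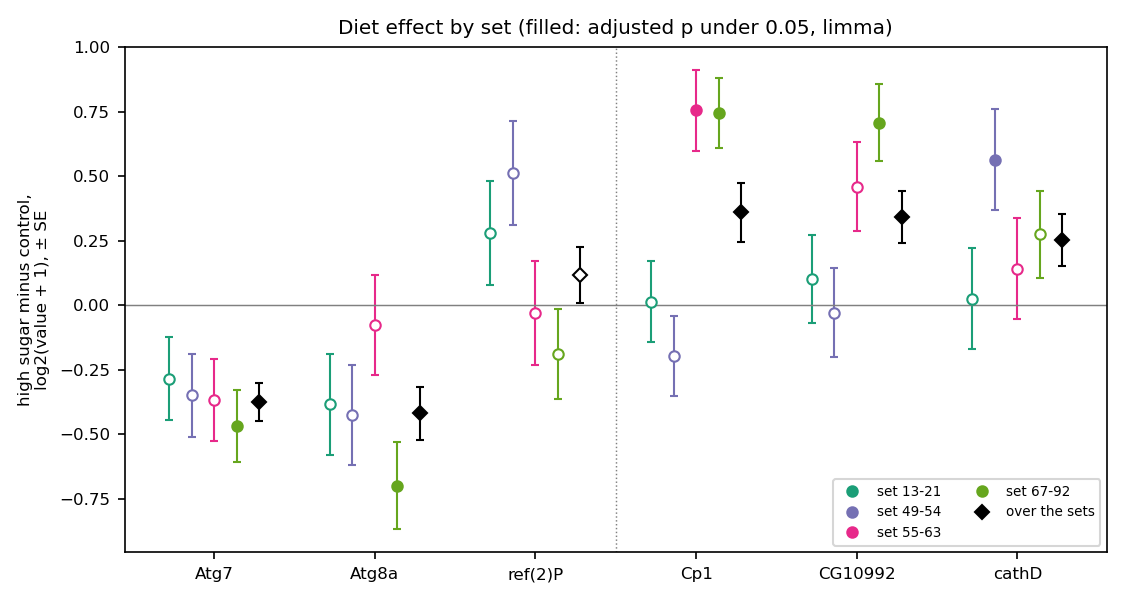
Difference between high sugar and control (y axis, log2(value + 1), limma estimate with SE) for the 6 genes (x axis) in each set (coloured circles) and over the sets (black diamonds), with filled symbols for an adjusted p under 0.05. Atg7 lies below 0 in every set, whereas Cp1 is near 0.75 in both r4 sets and at 0.01 and -0.20 in the cg sets.

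The 2 sets with r4-GAL4 were compared with the 2 sets with cg-GAL4, a contrast chosen after the values had been seen. P values for it and for the pairs of sets come from those same values, so they do not test the grouping anew. The diet effect of Cp1 was larger in the r4 sets by 0.84 ± 0.15 (adjusted p = 0.00103) and that of CG10992 by 0.55 ± 0.17 (adjusted p = 0.0311); 9.47% of features were called in this direction and 7.04% in the other. For ref(2)P the r4 effect was lower by 0.51 ± 0.19 (-0.51, adjusted p = 0.0793). The contrasts of Atg7 (-0.10 ± 0.16), Atg8a (0.02 ± 0.19) and cathD (-0.09 ± 0.19) did not pass. Taken by pairs of sets, Cp1 differed in all 4 pairs of an r4 with a cg set (0.73 to 0.95, adjusted p 0.00256 to 0.0309). The features called in that direction were 11.7% for 55-63 and 8.40% for 67-92 against 13-21, and 6.10% and 6.71% against 49-54. For Cp1 the pairs with the same driver differed by -0.21 (adjusted p = 0.527) and -0.01 (adjusted p = 0.992), which does not show that they are equal. Driver cannot be told apart here from set and library numbers, and its part was not tested. CG10992 passed in 1 pair, 67-92 against 49-54 (0.74 ± 0.23, adjusted p = 0.0246). Within 67-92 the library numbers fall into the runs 67-76 and 83-92, each with both diets. With 2 libraries of each diet a run, the difference of Cp1 was 0.72 ± 0.20 and 0.77 ± 0.20, that of CG10992 0.85 ± 0.22 and 0.56 ± 0.22, that of Atg8a -0.81 ± 0.25 and -0.59 ± 0.25 and that of Atg7 -0.41 ± 0.19 and -0.52 ± 0.19. In run 83-92 CG10992, Atg8a and Atg7 did not pass (limma, adjusted p = 0.133, 0.168 and 0.125), nor did Atg7 in run 67-76 (adjusted p = 0.134). With the pairs 67 with 83 and 75 with 91 averaged, Atg7 in 67-92 was at -0.46 (adjusted p = 0.0535), and the joint test for CG10992 gave an adjusted p of 0.0910.

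The cathepsins were then set against the autophagy genes inside each library, where the divisor of the library cancels. Cp1 over Atg8a was higher on high sugar in all libraries of all 4 sets. Among all ordered pairs of the 2231 tested features above 0 in every library, the ratio was higher throughout for 13.9% in 13-21, 25.6% in 49-54, 17.7% in 55-63 and 12.3% in 67-92. In 13-21 the log2 ratio was -2.39, -2.35 and -2.23 in control and -1.95, -2.01 and -1.79 on high sugar, and in 49-54 it was -0.82, -0.72 and -0.89 against -0.50, -0.71 and -0.51. In 55-63 it was 1.23, 0.05 and 1.40 against 1.48, 1.87 and 1.95. In 67-92 it was 1.90, 1.94, 1.68 and 2.08 against 3.36, 3.88, 3.67 and 3.08. The change in the ratio was thus 1.33-fold, 1.18-fold, 1.83-fold and 3.02-fold. Cp1 over Atg7 was also higher throughout in each set, by 1.35-fold, 1.29-fold, 2.53-fold and 3.32-fold. No other ratio of a cathepsin to an autophagy gene was so in every set. In the cg sets the mean of Cp1 itself did not rise, from 8.72 to 8.71 in 13-21 and from 10.7 to 9.18 in 49-54.

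The ratio of Cp1 to Atg8a differed far more between sets than between diets. Control libraries had a mean log2 ratio of -2.33 ± 0.08 (SD, n = 3) in 13-21, -0.81 ± 0.09 (n = 3) in 49-54, 0.89 ± 0.74 (n = 3) in 55-63 and 1.90 ± 0.17 (n = 4) in 67-92, with no overlap between the cg and the r4 sets. The 2 cg sets, of 1 genotype label, also did not overlap. This is a description. The 2 cg sets share driver and stock. Set 55-63 shares their stock and differs in driver and library numbers, while 67-92 differs in stock too. Driver could not be separated from library numbers in either case.

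Ratios to ref(2)P went the other way in the cg sets. Cp1 over ref(2)P was lower in all high-sugar libraries of 13-21 (0.79, 1.04 and 0.90 against 1.46, 1.16 and 1.12) and of 49-54 (0.83, 0.72 and 0.67 against 1.38, 1.51 and 1.89). In 67-92 it was higher in all, at 4.03, 5.13, 4.30 and 3.75 against 3.27, 3.28, 3.11 and 3.38. Of the 36 ratios of 1 cathepsin to 1 autophagy gene in 1 set, 30 had a higher mean on high sugar, 18 were higher in all libraries, 2 were lower in all and 16 overlapped. By set, 3, 4, 4 and 7 of 9 were higher in all libraries, to be read against the shares of all pairs given above, and the 9 ratios share 6 genes. The 2 that were lower in all were those of Cp1 to ref(2)P in the cg sets.

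As a mean of the 3 cathepsins minus the mean of the 3 autophagy genes, the log2 difference between diets was 0.21 in 13-21, 0.24 in 49-54, 0.70 in 55-63 and 1.29 in 67-92. In 67-92 it went from 3.62 ± 0.07 (SD, n = 4) to 4.91 ± 0.59 (n = 4), with 3.65, 3.70, 3.54 and 3.60 in control and 4.71, 5.59, 5.13 and 4.20 in high-sugar libraries. All high-sugar libraries were higher in 49-54 and 67-92, and the diets overlapped in the other 2 sets. With medians in place of means the cg sets gave -0.33 and -0.66, since ref(2)P is the middle autophagy gene in level.

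**Figure D3:**
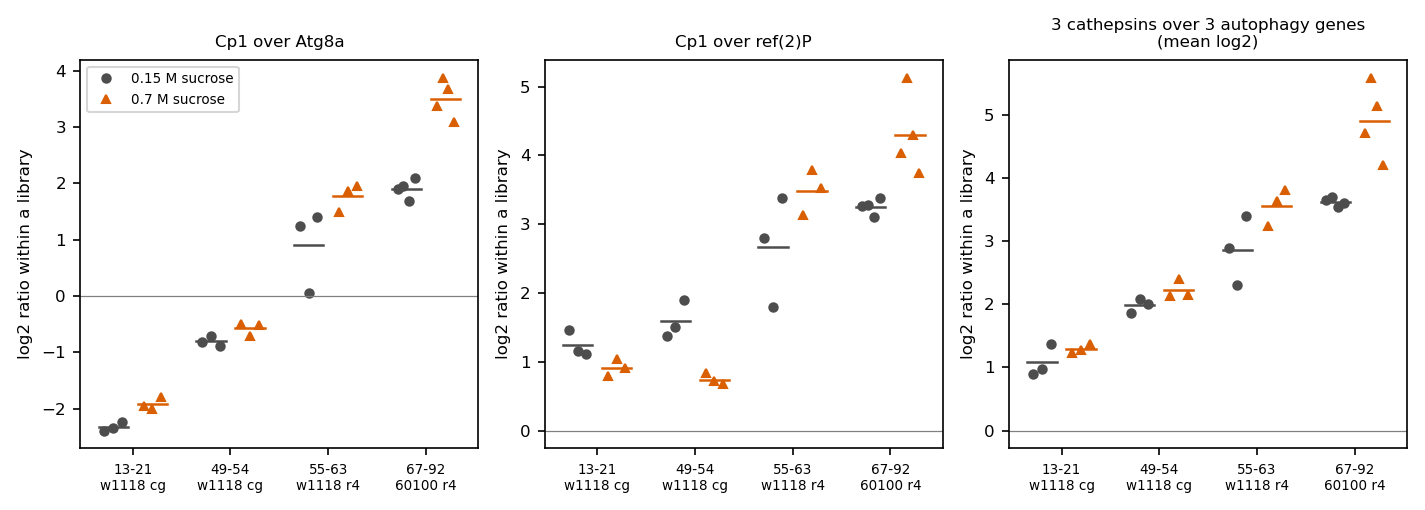
Log2 ratios within each library (y axis) of Cp1 to Atg8a, of Cp1 to ref(2)P and of the 3 cathepsins to the 3 autophagy genes by set (x axis), with circles for control, triangles for high sugar and bars for means. Cp1 over Atg8a is higher on high sugar in all 4 sets, while Cp1 over ref(2)P is lower in both cg sets.

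Across the 26 libraries, after the mean of each set was subtracted, Cp1 and CG10992 varied together (r = 0.77) and so did Atg7 and Atg8a (r = 0.69). ref(2)P was only weakly related to Atg7 (r = 0.14) and Atg8a (r = 0.29), and cathD only moderately to Cp1 (r = 0.35) and CG10992 (r = 0.45). These coefficients describe 26 libraries that share 4 sets and 2 diets. Among all features tested, the 3 most like Atg8a were CG8678 (Atg18b, r = 0.90), Rab7 (r = 0.89) and CG17337 (r = 0.89). For Atg7 they were CG7342, CG6206 (LManII) and CG12004, for ref(2)P Ef1alpha48D, CG14767 and Cnx99A, and for Cp1 CG16952, Sp212 and 7B2. For CG10992 they were CG10306, CG9796 (GILT1) and Sop2, and for cathD CG1236, RpL7A and sta, the last 2 being ribosomal proteins. The lowest of these coefficients was 0.84.

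Other genes of the same system went in both directions. Of 29 further autophagy genes only 7 reached the level needed for the test, and 2 of these fell: CG8678 (Atg18b, a phosphoinositide-binding protein of the forming autophagosome) by 0.33 ± 0.07 (adjusted p = 0.000625) and Rab7, the GTPase of late endosomes and lysosomes, by 0.29 ± 0.11 (adjusted p = 0.0341). Of the 7, 0 rose, where 23.1% of all features were called higher and 13.4% lower. Their median difference was 0.06, beside 0.0565 for all features. CG8678 went from 2.01 ± 0.11 (SD, n = 3) to 1.54 ± 0.14 (n = 3) in 13-21 and from 1.44 ± 0.29 (n = 4) to 0.781 ± 0.34 (n = 4) in 67-92. The SNARE gene CG1599 (Vamp7, -0.12 ± 0.06), the protease Atg4 (0.11 ± 0.07), the conjugating enzyme Aut1 (Atg3, 0.16 ± 0.13) and Atg18 (Atg18a, 0.06 ± 0.05) did not pass.

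In a fit with no filter on low values (10094 features, of which 7.76% were called higher and 14.3% lower), 4 of the 22 low autophagy genes passed, and they are named because they passed there. Among the 7666 features with a mean under 1, 3.63% were called higher and 15.1% lower. Atg1, the kinase that starts autophagy, fell by 0.46 ± 0.05 (adjusted p = 5.28e-06). Its level went from 0.982 ± 0.13 to 0.438 ± 0.013 in 13-21, from 0.727 ± 0.20 to 0.371 ± 0.14 in 49-54, from 0.702 ± 0.23 to 0.272 ± 0.080 in 55-63 (SD, n = 3 each) and from 0.934 ± 0.29 to 0.284 ± 0.060 in 67-92 (n = 4 each). In all 4 sets its high-sugar libraries lay below all controls, but the share of features with a mean under 1 that do so was not computed. Atg5, part of the conjugation complex for Atg8, fell by 0.12 ± 0.04 (adjusted p = 0.0158). Atg6 and Pi3K59F, both of the lipid kinase complex, rose by 0.23 ± 0.08 (adjusted p = 0.0366) and 0.08 ± 0.03 (adjusted p = 0.0422) from mean levels of 0.147 and 0.235.

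Of 19 other cathepsins and cathepsin-like proteases, 10 were listed at 0 in every library and 4 could be tested. CG6357, a cysteine protease of the cathepsin family, rose by 0.39 ± 0.10 (adjusted p = 0.00385), and CG12163 (CtsF, 0.16 ± 0.07), CG11459 (CtsL3, 0.14 ± 0.17) and 26-29-p (CtsK1, 0.06 ± 0.08) did not pass. Thus 1 of 4 rose and 0 fell, beside 23.1% and 13.4% of all features. The 4 inhibitor genes of cysteine cathepsins were all well expressed and split: 1 rose and 1 fell, to be read against the same shares. Cys, a cystatin, rose by 1.08 ± 0.13 (adjusted p = 1.61e-06), from 23.1 ± 7.5 to 66.8 ± 8.7 in 55-63 (SD, n = 3 each) and from 39.0 ± 16 to 84.6 ± 12 in 67-92 (n = 4 each). It was higher in all high-sugar libraries of every set. Of all features tested, 9.23% were so in 13-21, 34.3% in 49-54, 28.1% in 55-63 and 13.1% in 67-92. CG15369, a cystatin-like gene, fell by 0.59 ± 0.17 (adjusted p = 0.00844). cer, a propeptide-like inhibitor (0.24 ± 0.15), and CG31313 (0.20 ± 0.19) did not pass.

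Of 25 lysosomal hydrolases and related enzymes 13 were tested, 4 rose and 5 fell, beside 23.1% and 13.4% of all features. Those that rose were the 3 thiol reductases of the GILT family, CG10157 (GILT2, 0.67 ± 0.11), CG13822 (GILT3, 0.43 ± 0.11) and CG9796 (GILT1, 0.34 ± 0.12), and the nuclease DNaseII (0.44 ± 0.15). Those that fell were the mannosidases CG5322 (LManI, -0.69 ± 0.09) and CG6206 (LManII, -0.58 ± 0.10), the galactosidase CG7997 (-0.74 ± 0.26), the saposin precursor Sap-r (-0.46 ± 0.10) and the thioesterase Ppt2 (-0.15 ± 0.06). CREG (-0.27 ± 0.11), Hexo1 (-0.06 ± 0.14), CG12582 (beta-Man, 0.07 ± 0.08) and CG31414 (Gba1b, -0.03 ± 0.07) did not pass. CG5322 fell in each set by itself, with adjusted p values of 0.0121, 0.00212, 0.00970 and 0.0134. Of 15 genes of the lysosomal membrane and of lipid export 3 were tested, and 2 fell: CG3305 (Lamp1, -0.31 ± 0.12, adjusted p = 0.0397) and the sterol carrier Npc2a (-0.32 ± 0.11, adjusted p = 0.0294). Of the 3, 0 rose, to be read against the same shares of all features. Of these 16 calls in the wider lists, 6 were kept in all alternatives, those of Cys, CG10157, CG5322, CG6206, Sap-r and CG8678. Those of CG3305, Ppt2, Rab7, Npc2a and CG7997 were lost without 14, 13, 7, 3 and 2 of the 26 libraries in turn. The other 5 passed without each library but were lost under at least 1 other setting: DNaseII (adjusted p up to 0.386), CG9796 (up to 0.294), CG6357 (up to 0.14), CG15369 (up to 0.103) and CG13822 (up to 0.0591).

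**Figure D4:**
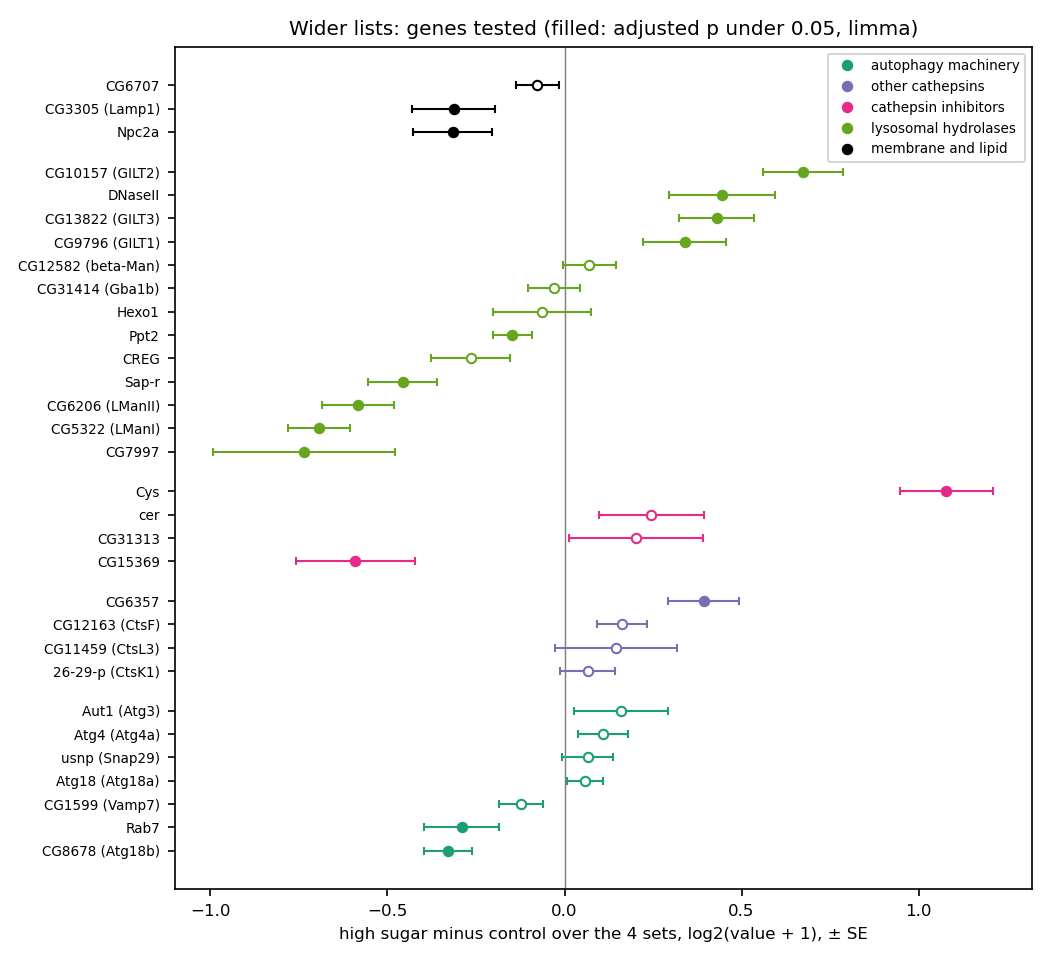
Difference between high sugar and control over the 4 sets (x axis, log2(value + 1), limma estimate with SE) for the tested genes of 5 wider lists (y axis, coloured by list), with filled symbols for an adjusted p under 0.05. Cys lies farthest above 0 at 1.08, and the GILT genes and mannosidases lie on opposite sides of 0.

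Markers of other tissues also differed between diets inside some sets, and their part in the results for the 6 genes was not tested. The 20 midgut markers had a summed level of 61.8 to 164 in control and 3.56 to 6.27 in high-sugar libraries of 55-63 (1 marker higher in mean, 16 lower, 3 at 0 in all). In 67-92 the sums were 12.7 to 173 and 82.4 to 192 (18 higher, 1 lower, 1 at 0 in all). Cp1 and CG10992 were higher on high sugar in both of these sets. The midgut gene Mal-A1 was at 0 in 9 of 13 control and 7 of 13 high-sugar libraries. The 8 muscle markers summed to 11.9 to 19.4 and 22.3 to 67.4 in 67-92 (7 higher, 1 lower). In 67-92, where 4 of the 6 genes passed, 1 of 9 fat body markers was higher and 8 were lower on high sugar, with sums of 12957 to 14124 and 9294 to 12572. In 49-54, where cathD rose, 9 of 9 fat body markers were higher on high sugar, with sums of 4669 to 6595 and 9669.8 to 11442. In the same set 9 salivary gland markers went from 33.8 to 604 down to 5.58 to 18.5 (0 higher, 7 lower, 2 at 0 in all) and 10 haemocyte markers from 18.05 to 24.7 down to 8.45 to 9.41 (1 higher, 9 lower), with Hml at 0 in 2 of 3 high-sugar libraries. The 20 midgut markers of 49-54 went from 6.04 to 84.4 down to 2.04 to 2.49 (0 higher, 14 lower, 6 at 0 in all). In 13-21, where 0 members passed, salivary gland sums were 2178 to 3651 in control and 2710 to 6047 on high sugar (9 higher, 0 lower). Fat body sums in 13-21 were 6708 to 7632 and 5989 to 7199 (5 higher, 4 lower).

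By the Ensembl annotation of a later build than that of the files, exons of ref(2)P share 173 bases with CG10337 on the opposite strand, those of cathD share 148 with puml and 28 with a copy of the transposon Burdock, both on the opposite strand, and those of Cp1 share 283 with CG42806 on the same strand. CG10337 and puml had mean levels of 0.325 and 0.968, and CG42806 was not analysed here. Whether strand was used in counting is not stated, so reads from those bases cannot be assigned to 1 gene.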

How the data were processed

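Total RNA of larval fat body was depleted of ribosomal RNA and sequenced on an Illumina HiSeq, per the labels' protocols. Tools named in the submitters' processing notes are Cufflinks 1.1.0, TopHat 1.3.2 and Bowtie 0.12.7, with the build dm3. No source used here states the annotation or filters. The deposited values are a ratio, an expression level over the library's upper quartile. The header names no unit; Cufflinks scales to gene length. The divisor was read from the values: the 75th percentile over 9608, 8320, 8467 and 9853 features is 1 in every library of the 4 sets, within 2.5e-10. The design had assumed another normalized unit, and the same test served. Depth is unknown, so no counting interval is given. All 26 value columns were mapped to samples by title.

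Values were taken as log2(value + 1), which understates the change of low genes. Features averaging 1 or more over the libraries (2428, all 6 members among them) were tested two-sided with limma 3.58.1 in R 4.3.3 (empirical Bayes with a trend, Benjamini-Hochberg over all features tested, threshold 0.05). The effect over the sets came from a model with set and diet, and within-set and between-set effects from 8 set-by-diet means with a shared spread. P values measure only the spread between these samples. The code was run on data simulated from the fitted model with independent noise. Such a run shows only whether effects of that model are recovered. It does not test the scaling or the likeness of some libraries.

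Members and lists were chosen with earlier results of these data known. Named were the 6 members, the 3 features most correlated with each, and from the wider lists each gene that passed over the sets and at most 4 a list that did not, those with the highest level. Of 182 list entries 181 were matched. Current symbols in parentheses are from RefSeq, of another build, so no coordinates are given, and sequences are not shown. Alternatives were quantile normalization, median-of-ratios scaling, a pseudocount of 0.1, a minimum mean of 5 or none, no trend, robust fits with array weights, background or number run as a term, equal weights of sets, fits on 1 set, leaving out each set or library, 1 number run, libraries with numbers 16 apart averaged, medians in the ratios and, chosen after seeing the data, 2 pairs averaged.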

Additional observations from a re-analysis of the deposited data

Results flagged for a closer look

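The diet effect differed between sets (limma, joint test, 37.0% of features pass) for Cp1 (adjusted p = 0.00209) and CG10992 (adjusted p = 0.0447), both described above, and for 11 of 31 tested genes of the wider lists. In autophagy these were Atg4 (adjusted p = 0.0225), at 0.01, -0.23, 0.21 and 0.36 in the order 13-21, 49-54, 55-63 and 67-92, and usnp (Snap29, adjusted p = 0.00552), at -0.24, -0.10, 0.46 and 0.12. Among the cathepsin inhibitors CG15369 (adjusted p = 0.00754) was at -1.29, 0.25, -1.07 and -0.34, and CG31313 (adjusted p = 0.000653) was at -1.05, 0.10, 0.98 and 0.64. CG31313, a cystatin-like gene, thus fell in 13-21 (adjusted p = 0.00876) and rose in 55-63 (adjusted p = 0.00571) and 67-92 (adjusted p = 0.0247).

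Among the hydrolases CG9796 (GILT1, adjusted p = 0.00779) was at 0.00, -0.19, 0.71 and 0.72. DNaseII (adjusted p = 0.00389) was at -0.11, 1.39, 0.42 and 0.16, CG13822 (GILT3, adjusted p = 0.00206) at -0.29, 0.77, 0.63 and 0.56, and CG31414 (Gba1b, adjusted p = 0.00160) at -0.34, 0.43, 0.01 and -0.17. CG7997 (adjusted p = 0.00500) was at -0.52, 0.47, -2.24 and -0.68, and in the high-sugar libraries of 55-63 it ranged from 0.00185 to 4.43. Npc2a (adjusted p = 0.00342) was at -0.91, -0.44, -0.26 and 0.18, and 26-29-p (adjusted p = 0.0350) at -0.11, 0.48, -0.02 and -0.05.

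CG10992 stood apart in 1 high-sugar library of 2 groups. Library 76 of 60100 r4 held 27.6, and library 53 of w1118 cg held 14.3, the latter in a group that spans 2 sets scaled separately. In 28 groups examined in this way, with an expected chance of about 1 in 20 each, these were the 2 found. Library 76 also had the lowest Atg8a and ref(2)P and the highest cathD of its group.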

How the results depend on the processing

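Each result was recomputed under 32 to 42 of 46 alternative settings, 26 of which leave out 1 library each. No paired analysis was possible because the groups compared share no replicate numbers. The fall of Atg7 over the sets and the rise of Cp1 in both r4 sets passed in all alternatives that tested them. As deposited, 562 genes were higher and 326 lower over the sets, against 432 and 424 after quantile normalization. In 67-92 it was 409 and 360, against 661 and 231 after median-of-ratios scaling, which moved the median of all genes from 0.03 to 0.16, and 247 and 378 after quantile normalization. In 49-54 quantile normalization gave 518 and 361 against 587 and 248, in 55-63 344 and 221 against 431 and 126, and in 13-21 69 and 114 against 52 and 142. A minimum mean of 5 left 766 features, without Atg7 and ref(2)P. No filter gave 783 genes higher and 1444 lower over the sets.

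Over the sets, where 3 members were higher and 2 lower, 0 were higher after quantile normalization, with numbers 16 apart averaged and without set 55-63 or 67-92. A minimum mean of 5, background as the term and leaving out 67-92 each left 1 lower. In 49-54, with 1 higher and 0 lower, no filter gave 0 higher, median-of-ratios scaling 2, quantile normalization 0 higher and 3 lower, and robust fits, averaging numbers 16 apart and the fit on the set alone each 2 higher and 1 lower. In 55-63, with 1 and 0, a minimum mean of 5 and robust fits gave 2 higher, and quantile normalization, robust fits and averaging numbers 16 apart 1 lower. In 67-92, with 2 and 2, run 83-92 alone gave 1 higher and 0 lower, averaging numbers 16 apart 0 lower, and a minimum mean of 5, averaging 67 with 83 and 75 with 91, the fit on the set alone and run 67-76 alone 1 lower. Between sets 2 members passed, against 5 with robust fits and 1 with no filter, quantile normalization, numbers 16 apart averaged or 67 with 83 and 75 with 91 averaged. Leaving out 1 library gave 2 to 3 higher and 2 lower over the sets, 0 to 2 higher in 49-54, 1 to 2 higher in 55-63, 1 to 2 lower in 67-92 and 1 to 3 between sets. The cathepsin difference with medians was -0.33 in 13-21, -0.66 in 49-54 and 0.24 as a mean of sets, and without 1 library it lay between 0.12 and 0.35, 0.15 and 0.29, 0.41 and 0.96, and 1.06 and 1.52 in the 4 sets.

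Differences that had not passed changed sign in some settings, and none passed there. In 13-21 cathD was at -0.015 after median-of-ratios scaling, -0.14 with robust fits and -0.16 to 0.26 without 1 library, and Cp1 at -0.024, -0.044 and -0.12 to 0.12. In 49-54 CG10992 was at -0.24 to 0.12 without 1 library. In 55-63 ref(2)P was at -0.23 to 0.16 without 1 library, Atg8a at 0.12 with robust fits and -0.23 to 0.15 without 1 library, and cathD at -0.19 after quantile normalization. In 67-92 ref(2)P was at 0.012 with robust fits and 0.015 in run 83-92, and cathD at -0.021 after quantile normalization. Except where stated, the cause was not tested. Unknown depth and separate scaling of the sets limit all levels.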
